A study of Saccharomyces cerevisiae with 8 samples.

Results

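The transcripts described here are those of 10 yeast genes whose enzymes carry electrons from NADH, glycerol phosphate or lactate into the mitochondrial respiratory chain, or make and use the glycerol phosphate that takes part in that route. They were chosen by name for their place in this pathway, with earlier results of these data known. They are the NADH dehydrogenase genes NDE1 (YMR145C), NDE2 (YDL085W) and NDI1 (YML120C), the glycerol phosphate genes GPD1 (YDL022W), GPD2 (YOL059W), GUT1 (YHL032C) and GUT2 (YIL155C), the lactate dehydrogenase genes DLD1 (YDL174C) and CYB2 (YML054C), and MCR1 (YKL150W). All 10 were among the 5449 genes measured, each by 1 probe set, a group of short probes that together read a transcript. The study's own lists from these arrays already name NDE1, NDE2, GPD2, CYB2 and MCR1 as changed between the mutants. Counts set beside shares of all genes therefore describe a chosen set and do not test an independent one. The arrays were Affymetrix Yeast Genome 2.0 arrays of Saccharomyces cerevisiae of the BY4741 background (MATa, auxotrophic for histidine, leucine, methionine and uracil), 3 of wild type, 3 of Δpde2 and 2 of Δpde2Δtpk3 cells. By the array methods the mutant cultures grew for 24 h in rich glucose medium (YPD) with 4 mM cAMP. The wild type arrays are labelled with 4 mM cAMP too, so no array shows cells without added cAMP. The array methods do not describe the wild type cultures or their medium. PDE2 encodes the high affinity cAMP phosphodiesterase and TPK3 a catalytic subunit of protein kinase A (PKA). By the study's strain list PDE2 is replaced with KanMx in Δpde2 cells, and in Δpde2Δtpk3 cells PDE2 is replaced with HIS3 and TPK3 with KanMx, so the markers differ together with TPK3 and cannot be told apart from it. Each genotype is represented by a single strain.

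Budding yeast has no proton-pumping complex I. NADH made in the cytosol cannot cross the inner mitochondrial membrane, and is oxidised at its outer face by the external dehydrogenases Nde1p and Nde2p, while Ndi1p oxidises matrix NADH at the inner face. All 3 pass electrons to ubiquinone. In the glycerol phosphate shuttle, cytosolic Gpd1p and Gpd2p use NADH to reduce dihydroxyacetone phosphate to glycerol-3-phosphate, and Gut2p at the inner membrane oxidises it again and hands the electrons to ubiquinone. Glycerol taken up from the medium enters the same route once Gut1p, the glycerol kinase, has phosphorylated it. Dld1p and Cyb2p oxidise D- and L-lactate and reduce cytochrome c. Mcr1p is an NADH-cytochrome b5 reductase of the outer membrane and the intermembrane space. Many genes for growth on non-fermentable carbon sources are kept low while glucose is plentiful, and high PKA activity is known to go with the fermentative state.

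Levels are given as quantile-normalized log2 values, on which a difference of 1 is a change of 2 fold. The 3 strains entered a single limma fit, the p-values of all 5449 genes were adjusted by the Benjamini-Hochberg method, and calls of higher or lower expression rest on an adjusted p under 0.05. The deleted genes bore out the labels, with PDE2 at 3.64% and 3.57% of wild type in Δpde2 and Δpde2Δtpk3 cells and TPK3 at 97.8% and 6.15%. HIS3, the marker that the strain list gives to Δpde2Δtpk3 cells, was instead highest in Δpde2 cells, at 11.81, 11.86 and 11.96 against 11.36, 10.88 and 10.95 in wild type and 11.11 and 11.53 in the double mutant, and was called higher in Δpde2 than in the wild type (0.81, limma adjusted p = 0.00934) but not between the mutants (adjusted p = 0.104). Wild type replicate 1 stood apart, with correlations across genes of 0.868 and 0.878 with the other wild type arrays, which had 0.992 with each other. In the 10 genes it lay between -0.14 and 0.41 from the mean of the other wild type arrays, except in GPD2, where it lay 1.60 above them, and over all genes the median size of this deviation was 0.47. The a-cell genes MFA1, MFA2, STE2 and BAR1 were at mean levels of 10.6 or more in every strain. Of the 3 alpha-cell genes, which MATa cells should not express, MF(ALPHA)1 was at 9.20, 7.17 and 6.79 on wild type replicates 1 to 3 and at 5.60 to 5.93 on the mutant arrays, and MF(ALPHA)2 was at 7.95 on wild type replicate 1 and at 5.97 to 6.16 on the others. STE3 was at 9.22 on wild type replicate 1 and at 6.68 to 7.60 on the others. The part of this difference in the results was not tested. Values without wild type replicate 1 stand beside the calls it changes among the 10 genes, and in neighbouring pathways beside the counts for Δpde2 cells that it changes. Leaving this array out of the fit keeps each difference between the mutants as it was. Only the spread shared by the 3 strains, and so the adjusted p, changes there. The residual SD over genes was 0.60 on this array and 0.10 to 0.34 on the others.

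In Δpde2 cells 8 of the 10 transcripts were lower than in wild type and none was higher. All of these 8 had arrays that did not overlap between the strains. Of all genes tested 41.4% were called in this comparison, 21.9% lower and 19.5% higher, and 62.0% had arrays that did not overlap (30.9% lower, 31.1% higher), so single calls are common here. NDE2, GUT1, MCR1, GUT2 and CYB2 fell by at least 2 fold, which 9.07% of all genes did (6.96% rose as far). GPD2 and DLD1 did not pass. The median log2 fold change of the 10 genes was -1.05 and that of all genes 0.03. The arrays read whole cultures, so a fall in every cell and a fall in some of the cells cannot be told apart.

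Against Δpde2Δtpk3 cells 4 of the 10 transcripts were lower in Δpde2 cells, namely NDE1, NDE2, CYB2 and MCR1, each by at least 2 fold. Of all genes 13.0% were called here, 7.41% lower and 5.56% higher, with 2.50% lower and 1.47% higher by at least 2 fold. The arrays of the 2 mutants did not overlap in any of the 10 genes, 9 being lower and GPD2 higher in Δpde2 cells, while 64.6% of all genes did not overlap (30.6% lower, 34.0% higher). Between Δpde2Δtpk3 and wild type cells NDE2 and GUT1 were lower and the other 8 did not pass, with 2.72% of all genes called, 1.69% lower and 1.03% higher. Both fell by at least 2 fold, which 1.14% of all genes did. Arrays did not overlap in 5 of the 10 genes, all lower in the double mutant, and in 36.9% of all genes. The median log2 fold change was -0.63 between the mutants (all genes 0.02) and -0.32 between the double mutant and wild type (all genes 0.00018). The 3 comparisons share their arrays, so they are not independent of each other.

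**Figure D1:**
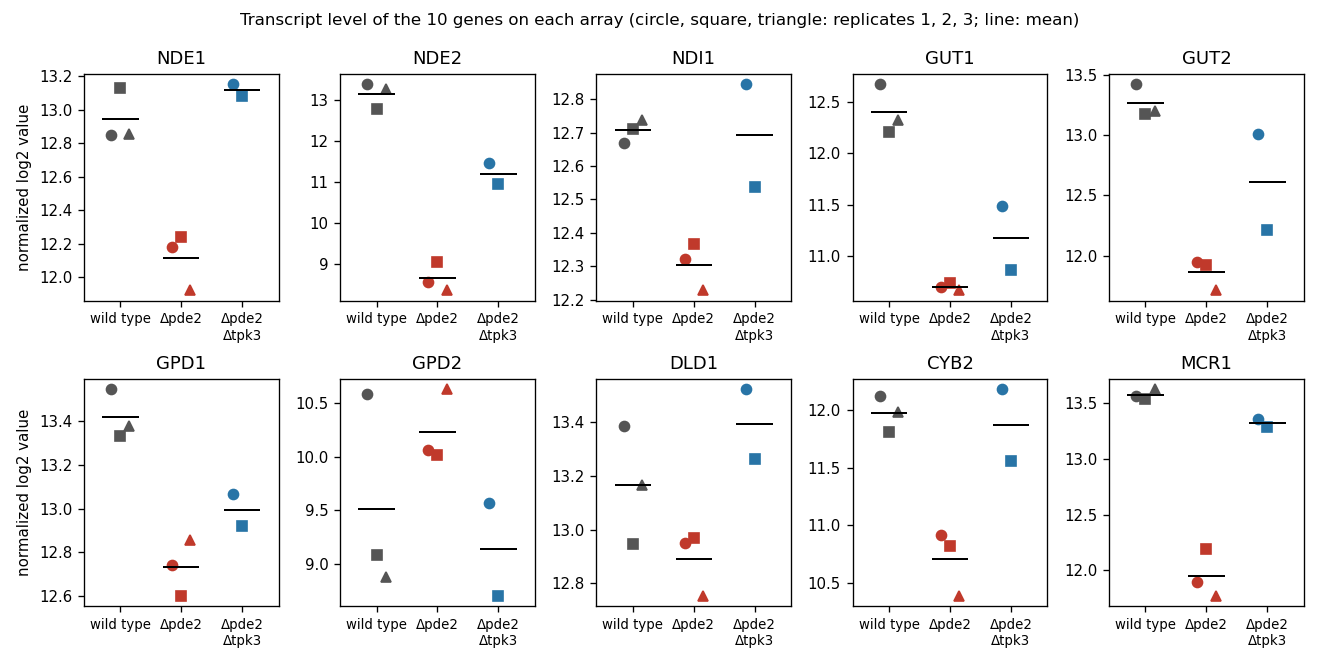
Normalized log2 value of each of the 10 genes on every array, with wild type in grey, Δpde2 in red and Δpde2Δtpk3 in blue; circles, squares and triangles are replicates 1 to 3, lines are means, and each panel has its own vertical axis. The Δpde2 arrays lie below the wild type arrays in 8 genes, overlap them in DLD1 and GPD2, and lie apart from both Δpde2Δtpk3 arrays in every gene.

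**Figure D2:**
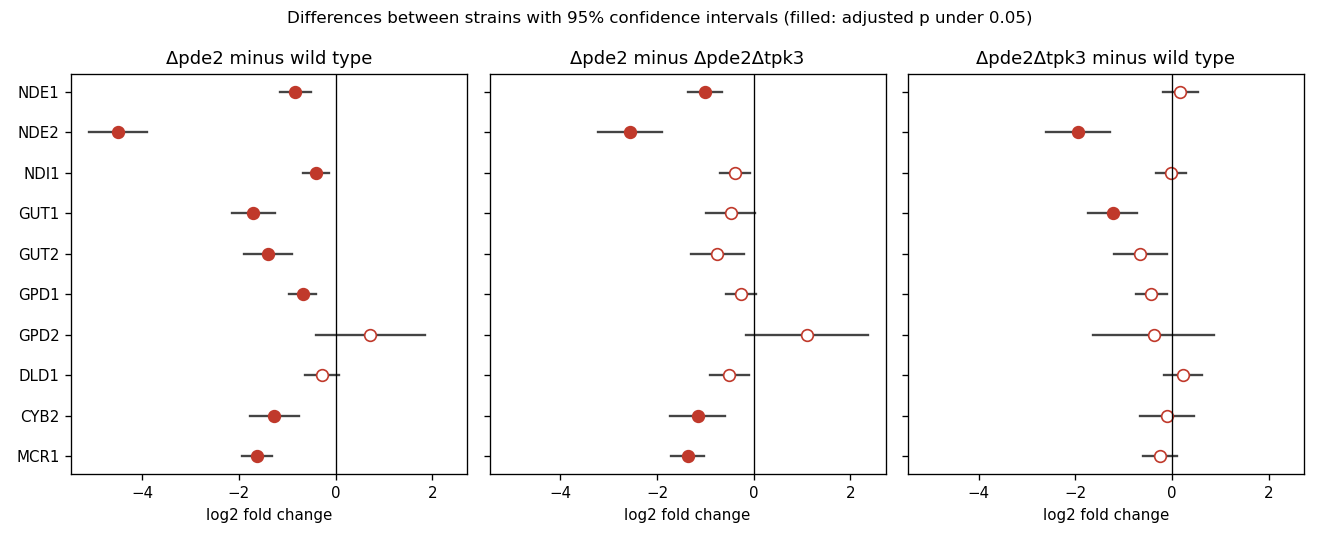
Log2 fold change of each gene in the 3 comparisons of strains, with 95% confidence intervals from limma as lines and filled points where the adjusted p was under 0.05. NDE2 changed most in each panel, by -4.50, -2.55 and -1.94.

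Among the NADH dehydrogenases, NDE2 had the largest fold change in each comparison. NDE2 stood at 13.39, 12.78 and 13.27 on wild type replicates 1 to 3, at 8.55, 9.05 and 8.35 on the Δpde2 arrays and at 11.46 and 10.95 on the Δpde2Δtpk3 arrays. The 3 strains lie in separate ranges, with the double mutant between the other two. In Δpde2 cells the transcript was at 4.43% of the wild type level, with a 95% confidence interval of the log2 fold change from -5.09 to -3.90, and only 7 of all 5449 genes fell further. In Δpde2Δtpk3 cells it was at 26.0% of wild type (log2 fold change -1.94, SE 0.28, limma adjusted p = 0.0228). That last call was lost without wild type replicate 3, Δpde2 replicate 1 or 3 or either Δpde2Δtpk3 array (adjusted p up to 0.197), whereas between Δpde2 cells and either other strain NDE2 passed whichever array was left out.

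NDE1, the other external enzyme, read 12.85, 13.13 and 12.85 in wild type, 12.18, 12.24 and 11.92 in Δpde2 and 13.16 and 13.08 in Δpde2Δtpk3 cells. The double mutant arrays reach into the wild type range, and the Δpde2 arrays lie below both. The level in Δpde2 cells was 56.2% of wild type, and 49.8% of that in Δpde2Δtpk3 cells. The difference between the mutants was lost when Δpde2 replicate 1 or 3 or either double mutant array was left out (limma adjusted p up to 0.0704). The confidence interval for NDE1 between Δpde2Δtpk3 and wild type cells ran from -0.18 to 0.53.

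NDI1, the internal enzyme, varied least of the 3. Its values were 12.67, 12.71 and 12.74 in wild type, 12.32, 12.37 and 12.23 in Δpde2 and 12.85 and 12.54 in Δpde2Δtpk3 cells. The Δpde2 arrays were the lowest, and the double mutant arrays lay on either side of the wild type ones. Against wild type, NDI1 was lower in Δpde2 cells by a log2 fold change of -0.40 (SE 0.12, limma adjusted p = 0.0297), a call that stood only with all arrays or without wild type replicate 1 or either double mutant array (adjusted p up to 0.113 otherwise). Between the mutants the difference of -0.39 did not pass (adjusted p = 0.0963). Without wild type replicate 1 the difference was the same and it passed (adjusted p = 0.0257).

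In the glycerol phosphate route, the transcripts for the enzymes that use glycerol and glycerol-3-phosphate fell in Δpde2 cells. So did GPD1 of the pair that makes glycerol-3-phosphate, while GPD2 did not pass. GUT1, the glycerol kinase, was at 12.67, 12.20 and 12.32 in wild type, at 10.70, 10.74 and 10.67 in Δpde2 and at 11.48 and 10.87 in Δpde2Δtpk3 cells. The Δpde2 arrays are tightly grouped, and the double mutant lies nearer to them than to wild type. GUT1 fell to 30.8% of wild type in Δpde2 cells (log2 fold change -1.70, SE 0.19, limma adjusted p = 0.000870) and to 42.8% in Δpde2Δtpk3 cells (-1.22, SE 0.22, adjusted p = 0.0364). Between the mutants it did not pass (-0.47, 95% confidence interval -0.98 to 0.03, adjusted p = 0.193). The call in Δpde2Δtpk3 cells stood without wild type replicate 1 or Δpde2Δtpk3 replicate 1, and was lost without any other array (adjusted p up to 0.219).

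GUT2, the mitochondrial glycerol-3-phosphate dehydrogenase that closes the shuttle, read 13.43, 13.18 and 13.20 in wild type, 11.95, 11.92 and 11.71 in Δpde2 and 13.01 and 12.22 in Δpde2Δtpk3 cells. The double mutant arrays lie between the other strains and 0.79 apart, replicate 1 near wild type and replicate 2 nearer to Δpde2. Against wild type GUT2 fell to 37.8% in Δpde2 cells (log2 fold change -1.40, SE 0.21, limma adjusted p = 0.00231). The difference between the mutants did not pass (-0.75, adjusted p = 0.0819), although without wild type replicate 1 or Δpde2Δtpk3 replicate 2 it did (adjusted p = 0.0240 and 0.0493). Against wild type, GUT2 in Δpde2Δtpk3 cells did not pass either (adjusted p = 0.185), with an unadjusted interval from -1.21 to -0.10.

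GPD1, known as the main glycerol-3-phosphate dehydrogenase under osmotic stress, was at 13.54, 13.33 and 13.38 in wild type, at 12.74, 12.60 and 12.86 in Δpde2 and at 13.07 and 12.92 in Δpde2Δtpk3 cells. Its 3 strains again lie in separate ranges, with the double mutant between wild type and Δpde2. In Δpde2 cells GPD1 was lower than in wild type (log2 fold change -0.68, SE 0.12, limma adjusted p = 0.00430) and passed neither between the mutants (-0.26, adjusted p = 0.246) nor in Δpde2Δtpk3 against wild type cells (-0.42, adjusted p = 0.138).

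GPD2, known for its part in redox balance without oxygen, was the only one of the 10 with a positive fold change in Δpde2 cells against either other strain. It read 10.58, 9.08 and 8.87 in wild type, 10.06, 10.01 and 10.63 in Δpde2 and 9.57 and 8.70 in Δpde2Δtpk3 cells. Wild type replicate 1 lay among the Δpde2 arrays, and the other wild type arrays lay with the double mutant. With all arrays GPD2 did not pass against wild type (log2 fold change 0.72, 95% confidence interval -0.40 to 1.84, limma adjusted p = 0.253) or between the mutants (1.10, -0.15 to 2.36, adjusted p = 0.219). Without wild type replicate 1 both passed, at 1.26 (adjusted p = 0.00589) and 1.10 (adjusted p = 0.0158). In that setting 60.8% of all genes were called in the first comparison and 44.6% in the second.

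Of the lactate dehydrogenases, CYB2 fell in Δpde2 cells and DLD1 did not pass. CYB2, which oxidises L-lactate in the intermembrane space, was at 12.12, 11.81 and 11.98 in wild type, at 10.92, 10.82 and 10.39 in Δpde2 and at 12.18 and 11.55 in Δpde2Δtpk3 cells. The double mutant arrays lie on either side of the wild type arrays, and all Δpde2 arrays lie below them. CYB2 was at 41.6% of wild type in Δpde2 cells (log2 fold change -1.26, SE 0.21, limma adjusted p = 0.00373) and was 2.23 fold lower than in Δpde2Δtpk3 cells (-1.16, SE 0.24, adjusted p = 0.0251). The second of these calls was lost without any one of the 5 mutant arrays (adjusted p up to 0.111). DLD1, which oxidises D-lactate at the inner membrane, read 13.39, 12.95 and 13.17 in wild type, 12.95, 12.97 and 12.75 in Δpde2 and 13.52 and 13.26 in Δpde2Δtpk3 cells. Wild type and Δpde2 arrays overlap, and the double mutant arrays are above the Δpde2 ones. DLD1 did not pass against wild type (-0.28, 95% confidence interval -0.63 to 0.08, adjusted p = 0.179) or between the mutants (-0.50, adjusted p = 0.0960), and passed between the mutants without wild type replicate 1 (adjusted p = 0.0149).

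MCR1 and NDE2 were the 2 of the 10 genes whose difference between the mutants passed in each leave-one-out fit. MCR1 read 13.57, 13.54 and 13.63 in wild type, 11.90, 12.20 and 11.77 in Δpde2 and 13.36 and 13.29 in Δpde2Δtpk3 cells. All Δpde2 arrays lie more than 1 log2 unit below every other array. MCR1 fell to 32.5% of wild type in Δpde2 cells (log2 fold change -1.62, SE 0.13, limma adjusted p = 0.000305) and was 2.58 fold lower than in Δpde2Δtpk3 cells (-1.37, SE 0.15, adjusted p = 0.00647). The first call also stood in each of these fits, and the second had an adjusted p of at most 0.0432 in them. MCR1 in Δpde2Δtpk3 cells was a little below wild type on both arrays without passing (-0.25, adjusted p = 0.377).

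**Figure D3:**
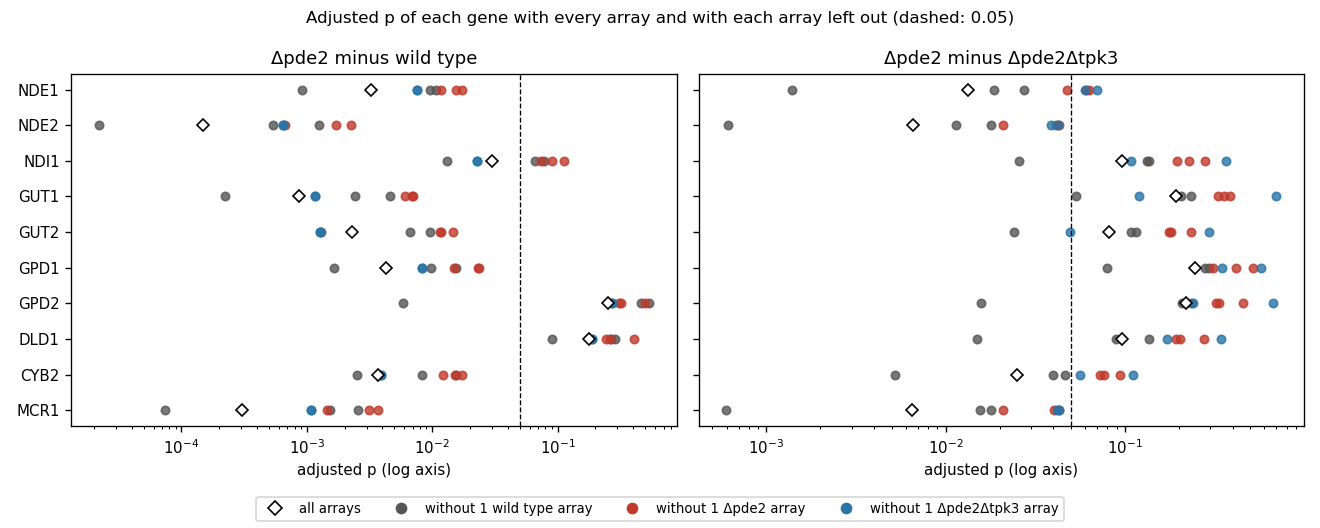
Limma adjusted p of each gene (log axis) with all arrays (diamonds) and with each array left out in turn (points coloured by the strain of the array left out), for Δpde2 against wild type and against Δpde2Δtpk3 cells, with the 0.05 threshold dashed. In the second panel NDE2 and MCR1 stay left of the threshold at every point, up to 0.0431 and 0.0432, and GPD2 crosses it only without wild type replicate 1.

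All 10 genes were higher on Δpde2Δtpk3 replicate 1 than on replicate 2, by 0.07 to 0.87, as were 55.7% of all genes. The levels of the double mutant therefore rest on 2 arrays that differ in the same direction for every gene described here, GPD2 and GUT2 most.

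Changes of genes with related roles were set against each other on the same array. Since probes differ in brightness, a difference between 2 genes on 1 array has no meaning as a level, but how that difference moves between strains can be compared. NDE2 minus NDE1 had a mean of 0.20 ± 0.48 on the 3 wild type arrays, -3.47 ± 0.24 on the 3 Δpde2 arrays and -1.92 ± 0.31 on the 2 Δpde2Δtpk3 arrays (± SD), a shift from wild type of -3.67 and -2.12. For GPD2 minus GPD1 the wild type arrays had -3.91 ± 0.83, the Δpde2 arrays -2.50 ± 0.24 and the Δpde2Δtpk3 arrays -3.86 ± 0.51. Wild type replicate 1, at -2.96, was the nearest to the Δpde2 arrays and still below them. For CYB2 minus DLD1 they had -1.19 ± 0.06, -2.18 ± 0.17 and -1.53 ± 0.26, in the same order of strains. GUT2 minus GUT1 was 0.87 ± 0.11, 1.16 ± 0.11 and 1.44 ± 0.12 in the same order, the only pair in which the double mutant was the farthest from wild type. Of the 12 comparisons, 11 had arrays that did not overlap, each with the smallest p that these numbers of arrays allow (two-sided exact permutation test, p = 0.1, adjusted p = 0.109), so none could reach 0.05. GPD2 minus GPD1 overlapped between Δpde2Δtpk3 and wild type cells (difference 0.04, exact p = 0.9).

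**Figure D4:**
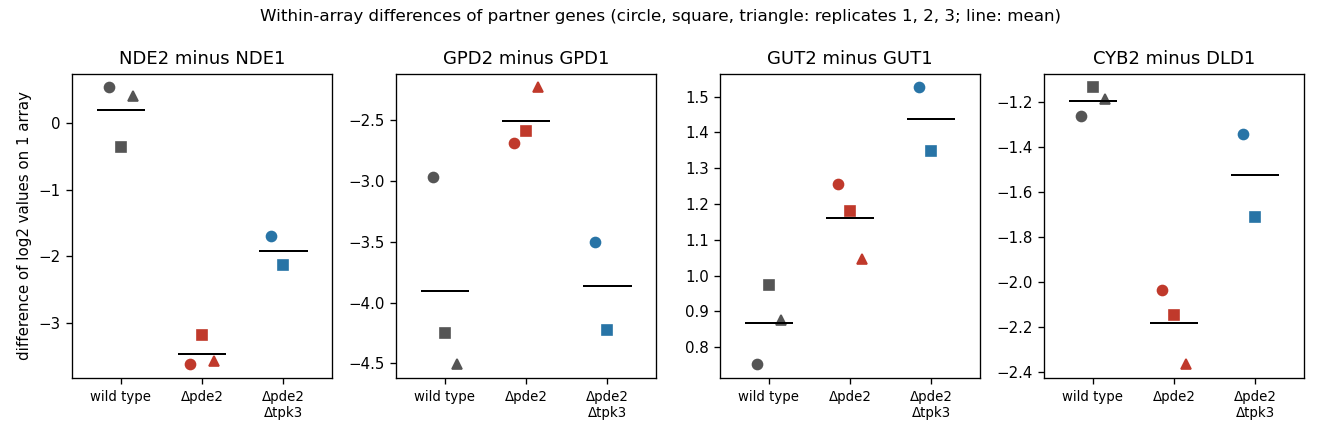
Difference of the normalized log2 values of 2 partner genes on each array, by strain, with circles, squares and triangles for replicates 1 to 3 and lines for means. NDE2 minus NDE1 lies between -0.35 and 0.54 in wild type, between -3.63 and -3.19 in Δpde2 and at -1.70 and -2.14 in Δpde2Δtpk3 cells.

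The genes whose levels followed NDE2 most closely over the 8 arrays were NCR1 (r = 0.998), YIM1, VPS62, AAC1 and CSM4 (r = 0.995), of which AAC1 is a mitochondrial ADP/ATP carrier and Ncr1p a sterol-handling protein of the vacuole. All 5 were lower in Δpde2 cells than in both other strains, CSM4 by -3.61 and -2.02 (limma adjusted p = 0.000249 and 0.0116) and AAC1 by -1.73 and -0.96 (adjusted p = 0.000209 and 0.00978). The 5 closest to GPD2 were YPL278C (r = 0.987), IOC2, SEC11, SEC20 and YLR154C-H (r = 0.965), and none of them passed in either comparison of Δpde2 cells. These correlations are over arrays of only 3 strains and share the departure of wild type replicate 1, and they are given as a description. Genes picked for following NDE2 this closely must differ between the strains much as NDE2 does, so their adjusted p values add no support.

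Around these enzymes, 87 further genes in 9 lists of neighbouring pathways were measured. These lists too were written with earlier results of these data known. In Δpde2 against wild type cells 47 of them passed (54.0%, against 41.4% of all genes), 30 of these whichever array was left out. Between the mutants 21 passed (24.1%, against 13.0% of all genes). Of these 21 only OAC1 and SDH2 stood in each leave-one-out fit (adjusted p at most 0.0308 and 0.0455). In Δpde2Δtpk3 against wild type cells 4 passed (4.60%, against 2.72% of all genes), and none of these stood in every case. Without wild type replicate 1 the counts were 61, 47 and 20 (70.1%, 54.0% and 23.0%, against 60.8%, 44.6% and 17.9% of all genes). The counts given below for each list stand against these shares of all genes, with and without wild type replicate 1. The medians given below for each list stand against medians over all genes of 0.03 for Δpde2 against wild type cells and 0.02 between the mutants.

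Of 10 genes that make, move or use glycerol, 2 rose and 2 fell in Δpde2 cells against wild type, where 41.4% of all genes were called. The list medians were 0.09 against wild type and 0.29 between the mutants. GPP2, which removes the phosphate from glycerol-3-phosphate to release glycerol, rose by 1.98 (SE 0.21, limma adjusted p = 0.000661) and the dihydroxyacetone kinase DAK2 by 2.12 (SE 0.30, adjusted p = 0.00180). DAK2 read only 6.60, 5.45 and 5.49 in wild type, while the deleted PDE2 read 4.89 to 5.18 on the mutant arrays. The size of the DAK2 rise is therefore uncertain, and it was 2.50 without wild type replicate 1. STL1, the proton symporter that takes up glycerol, was at 12.20, 12.13 and 12.14 in wild type, 7.60, 8.39 and 6.90 in Δpde2 and 10.45 and 8.42 in Δpde2Δtpk3 cells. Its log2 fold change in Δpde2 cells was -4.52 (SE 0.55, adjusted p = 0.00111), close to that of NDE2. DAK1 was also lower (-0.43, adjusted p = 0.0453, not passing without wild type replicate 2 or any 1 mutant array). Between the mutants GPP2 (0.89, adjusted p = 0.0487) and DAK2 (1.49, adjusted p = 0.0325) were higher in Δpde2 cells, both only with all mutant arrays, and STL1 did not pass (-1.80, adjusted p = 0.102, or 0.0441 without wild type replicate 1). Without that array 4 of the 10 rose and 3 fell against wild type, and 4 were higher and 1 lower between the mutants. In Δpde2Δtpk3 against wild type cells none of the 10 was called by limma, while 1 was higher and 2 were lower at an unadjusted p under 0.05, and without wild type replicate 1 GPP2 and DAK2 were called higher and STL1 lower.

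Among other entries to ubiquinone, all 4 succinate dehydrogenase genes, SDH1 to SDH4, were lower in Δpde2 cells than in wild type (-0.78 to -1.40). They were also lower than in Δpde2Δtpk3 cells (-0.50 to -1.24). Of all genes 21.9% were lower in the first comparison and 7.41% in the second. The proline dehydrogenase PUT1 passed in neither comparison (0.60 and 0.04), and against wild type it passed without wild type replicate 1 (0.34, adjusted p = 0.00924) or without replicate 2. The median of these 5 genes was -0.82 and -0.72. Of 6 genes for cytochrome c, which receives the electrons from lactate, and its partners, 4 fell and 1 rose in Δpde2 cells against wild type. In that comparison 21.9% of all genes fell and 19.5% rose. CYT1 (cytochrome c1) fell by 1.22 and CYC1 (the main isoform of cytochrome c) by 0.97 on the log2 scale, with ERV1 (-0.84) and CCP1 (-0.43), and CYC2, which acts in the attachment of haem to cytochrome c, rose by 0.73. Between the mutants, where 13.0% of all genes were called, CYT1 (-0.998) and CYC1 (-0.96) were lower and CYC2 (0.56) higher. The list medians were -0.63 and -0.38. Without wild type replicate 1 the mutants differed in 6 genes, CYC7, CCP1 and ERV1 also being lower in Δpde2 cells. In that setting 44.6% of all genes were called between the mutants.

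Of 3 further lactate and hydroxyglutarate genes, DLD3 rose in Δpde2 cells against wild type (1.23, limma adjusted p = 0.000419), DLD2 fell (-0.49, adjusted p = 0.0200) and the lactate permease JEN1 did not pass (-0.43, adjusted p = 0.0713). DLD2 and DLD3, which encode dehydrogenases of D-2-hydroxyglutarate, were called in the same directions between the mutants (-0.56 and 0.64), and the list medians were -0.43 and -0.19. Of the 4 genes around cytochrome b5, the partner of the reductases, PGA3 rose in Δpde2 cells against wild type (0.52, adjusted p = 0.0117, not passing without Δpde2 replicate 2). CBR1, CYB5 and ERG11 did not pass (0.05, 0.29 and -0.11). Without wild type replicate 1 CYB5 rose as well (0.54, adjusted p = 0.0137) and the list median was 0.34. None of these 4 passed between the mutants, where 1 was higher at an unadjusted p under 0.05, and the list medians were 0.17 and 0.27. Without wild type replicate 1 CBR1 (0.33, adjusted p = 0.0162) and CYB5 (0.60, adjusted p = 0.0134) were higher in Δpde2 than in Δpde2Δtpk3 cells.

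Of 18 genes of other redox shuttles, 10 fell and 1 rose in Δpde2 cells against wild type, where 21.9% of all genes fell and 19.5% rose. The list medians were -0.45 and, between the mutants, -0.22. ADH2, the alcohol dehydrogenase that oxidises ethanol, fell by 3.20 on the log2 scale (SE 0.31, limma adjusted p = 0.000529), the oxodicarboxylate carrier ODC1 by 1.72, and the aldehyde dehydrogenases ALD4 and ALD6 by 1.24 and 1.01. AGC1, the mitochondrial aspartate-glutamate carrier, fell by 1.00 and the malate dehydrogenases MDH3, MDH2 and MDH1 by 0.92, 0.75 and 0.54, with YHM2 (-0.58) and AAT2 (-0.36). The gene that rose was OAC1, the oxaloacetate carrier, at 10.23, 10.46 and 10.31 in wild type, 12.20, 12.27 and 12.29 in Δpde2 and 10.69 and 10.72 in Δpde2Δtpk3 cells. It was higher in Δpde2 cells than in both others (1.92 and 1.55, SE 0.10 and 0.12, adjusted p = 0.000148 and 0.00296). Between the mutants ALD4 (-1.03), ODC1 (-1.01) and ALD6 (-0.84) were lower, and ADH2 did not pass (-1.22, adjusted p = 0.0625), except without wild type replicate 1 (adjusted p = 0.0210) or Δpde2 replicate 2. Without wild type replicate 1 the list had 5 genes higher and 10 lower in Δpde2 cells against wild type, with ADH4, AAT1, ODC2 and DIC1 added, and 4 higher and 8 lower between the mutants. ADH2 was the only gene of this list called in Δpde2Δtpk3 against wild type cells (-1.98, adjusted p = 0.0361).

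The genes that supply NAD were mixed. Of 16, 3 rose and 7 fell in Δpde2 cells against wild type, where 19.5% of all genes rose and 21.9% fell. Those called were led by NRK1, the nicotinamide riboside kinase (2.51, SE 0.26, limma adjusted p = 0.000621), and by YIA6, a mitochondrial NAD carrier (-1.22, adjusted p = 0.00283). The others that rose were NMA1 and NPT1, and the others that fell were BNA5, BNA2, YEF1, QNS1, NMA2 and POS5, the last a mitochondrial NADH kinase. Between the mutants, where 13.0% of all genes were called, NRK1 (1.29) and BNA4 (0.58) were higher and POS5 (-0.63) lower in Δpde2 cells. The list medians were -0.30 and -0.15. Without wild type replicate 1 the calls were 3 higher and 8 lower against wild type, where 60.8% of all genes were called. Between the mutants they were then 3 higher and 5 lower, where 44.6% of all genes were called. BNA4 was also lower in Δpde2Δtpk3 than in wild type cells (-0.85, adjusted p = 0.0371). Of 4 measured genes whose enzymes make cytosolic NADH from glyceraldehyde phosphate or formaldehyde and formate (TDH1, TDH3, FDH1 and SFA1), none was called in any comparison by limma with all arrays, and none at an unadjusted p under 0.05. The largest change among them, that of FDH1 in Δpde2 against wild type cells (-0.80, SE 0.59, adjusted p = 0.303), rests on wild type replicate 1, where FDH1 read 10.14 against 7.60 and 8.06 on the other wild type arrays, and was -0.03 without it. Between the mutants FDH1 was called lower in Δpde2 cells without that array (-0.40, adjusted p = 0.0494). The list medians were -0.13 and -0.04. TDH3 had the highest deposited value on each wild type array, so quantile normalization set it to 14.70 on all 3. Its level and spread in wild type are thus fixed by the normalization. TDH1, at 13.96 to 14.16, also lies near the top of the scale. For these genes the lack of a call does not show that their levels were unchanged.

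Of 21 regulators with known roles at genes of this group, 6 fell and 4 rose in Δpde2 cells against wild type, where 21.9% of all genes fell and 19.5% rose. Without wild type replicate 1, 9 fell and 5 rose, in a setting where 60.8% of all genes were called. Between the mutants 3 were lower and 0 higher with all arrays, where 13.0% of all genes were called. Without wild type replicate 1, 6 were lower and 1 higher between the mutants, where 44.6% of all genes were called. CAT8 (-1.76, limma adjusted p = 0.00154) and ADR1 (-1.38, adjusted p = 0.000692), activators of genes for growth on ethanol and glycerol, fell most, followed by HAP1 (-0.76), RSF2 (-0.73), MSN2 (-0.61) and ROX1 (-0.56). MSN4 (1.39), INO4 (1.19), the stress kinase HOG1 (1.12) and OPI1 (0.39) rose. CAT8 (-1.18), ADR1 (-0.99) and RSF2 (-0.76) were also lower in Δpde2 than in Δpde2Δtpk3 cells (adjusted p = 0.0314, 0.0159 and 0.0188), and each call was lost without any 1 of the mutant arrays (adjusted p at most 0.146). HAP4, the activating subunit of the Hap complex, did not pass against wild type (-0.16, adjusted p = 0.720) or between the mutants (-0.46, adjusted p = 0.472), and without wild type replicate 1 it passed in both (-0.56, adjusted p = 0.0124, and -0.46, adjusted p = 0.0376). MSN4 (1.21) and HOG1 (0.89) were higher in Δpde2Δtpk3 than in wild type cells (adjusted p = 0.0355 and 0.0156), each lost without wild type replicate 3 or any 1 mutant array (adjusted p at most 0.238). The list medians were -0.16 in Δpde2 against wild type cells and -0.17 between the mutants.

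**Figure D5:**
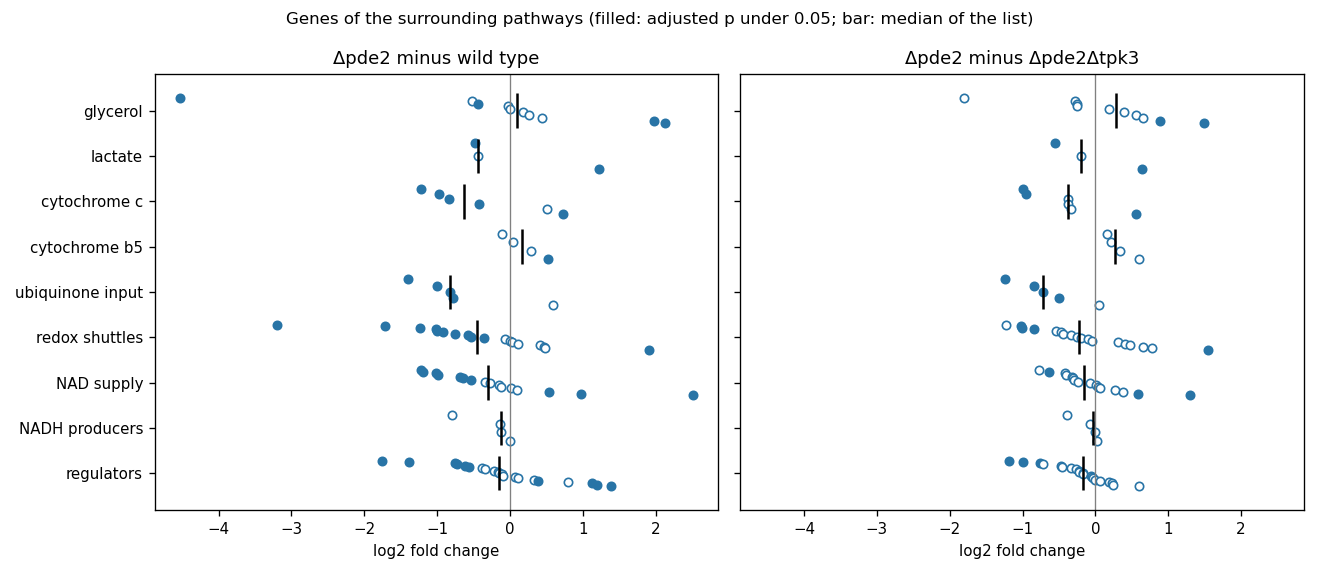
Log2 fold change of each of 87 genes in 9 lists of neighbouring pathways, for Δpde2 against wild type and against Δpde2Δtpk3 cells, with filled points where the adjusted p was under 0.05 and bars at the median of the list. The list of other entries to ubiquinone has the lowest medians, -0.82 and -0.72, and the points far to the left in the first panel are STL1 (-4.52) and ADH2 (-3.20).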

How the data were processed

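The authors deposited 1 table of values on a log2 scale, as its range shows, for 8 Affymetrix Yeast Genome 2.0 arrays. The normalization behind it is not given in the sources used here. The methods describe triplicate cultures of the mutants, and 2 arrays of Δpde2Δtpk3 cells were analysed here. The labels do not say whether the wild type arrays come from separate cultures, so p-values measure only the spread between these arrays. Their number limits the precision.

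Because first quartiles differed by 0.386, the arrays were quantile normalized in limma 3.58.1 (R 4.3.3). Of 5814 probe sets, 5498 pair with 1 gene and 316 with none. The brightest probe set on average stood for each of 47 genes that have several, giving 5449 genes. Names were matched to RefSeq locus tags. The 3 strains were the groups of a single limma fit with 5 residual degrees of freedom, and calls were made at an adjusted p under 0.05. Within-array differences of 4 gene pairs were compared with exact permutation tests. The code was tested on simulated data. Fold changes are differences of log2 means. Promoter and protein sequences and genome coordinates were not used here.

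The text names all 10 genes, PDE2 and TPK3, the called members of 9 lists (with the largest changes where fewer than 4 were called), and the 5 genes closest to NDE2 and to GPD2 by correlation. Members and lists were chosen with earlier results of these data known. The alternatives were the values as deposited, median centring, a filter on the dimmest 33.3 percent of genes, averaged probe sets, fits to the 2 strains compared, robust moderation with a trend, weights for arrays, the replicate number as a block, normalization without wild type replicate 1 and each array left out in turn.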

Additional observations from a re-analysis of the deposited data

How the results depend on the processing

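The count of 8 called genes in Δpde2 against wild type cells was between 7 and 9 under every alternative run. Between Δpde2 and Δpde2Δtpk3 cells the count of 4 became 8 with only the arrays compared, 9 with array weights, 8 when normalized without wild type replicate 1 and 2 to 8 with each array left out, the 8 without wild type replicate 1. Leaving out that array also raised the share of all genes called between the mutants, from 13.0% to 44.6%. The rise to 8 is therefore not particular to the genes described here. Against wild type the shares rose from 41.4% to 60.8% for Δpde2 and from 2.72% to 17.9% for Δpde2Δtpk3 cells. Shares of all genes under the other alternatives are not given here. Between Δpde2Δtpk3 and wild type cells the count of 2 became 1 with median centring, 0 with only the arrays compared (2 at an unadjusted p under 0.05) and 0 to 2 with each array left out. With the replicate number as a block the counts were 7, 0 and 0 (6 and 4 of the latter at an unadjusted p under 0.05). The labels do not say whether arrays of the same replicate number belong together. After the strain means were taken off, 2 of 7 same-numbered pairs had correlations over 0.1 (range -0.09 to 0.19). By the same measure 3 of 8 arrays were most like an array of their own number in another strain. The 2 double mutant arrays mirror each other once their mean is taken off, so this check cannot exclude pairing. Against wild type, the small changes in Δpde2Δtpk3 cells ranged across 0 for GPD2 (0.19 with array weights, 0.15 without wild type replicate 1, -0.81 and 0.05 without Δpde2Δtpk3 replicates 1 and 2, 0.15 when normalized without wild type replicate 1), NDI1 (0.00083 without wild type replicate 3, -0.17 and 0.14 without Δpde2Δtpk3 replicates 1 and 2) and CYB2 (-0.42 and 0.21 without them), and GPD2 minus GPD1 ran from -0.32 to 0.52 with each array left out. Over all 507 values of single genes under an alternative, 443 kept their direction and side of the threshold, 35 lost the call, 22 gained one and 7 turned sign. GPD2 gave no value with the filter on dim genes. Beyond the shared spread described for wild type replicate 1, the cause of the lost and gained calls was not tested. A fit without a Δpde2Δtpk3 array takes the spread of the remaining one from the other strains.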
